A study of Oryctolagus cuniculus with 16 samples.

Results

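Vaginal tissue lying beside a graft was compared with vaginal tissue from rabbits that had surgery without a graft. The comparison rests on 10 of the 16 libraries in the series: 7 libraries from tissue 10 mm away from a graft and 3 libraries from sham-operated animals. The members were chosen by the labelled treatment alone. Of the 7 graft libraries, 3 came from animals with an acellular graft, labelled as without particles, and 4 from animals with a PLATE graft, labelled as with tissue particles, which the series title describes as autologous micrografting. The 2 kinds of graft were given equal weight, so that each contributes the same to the mean whatever its number of libraries. Every animal was a juvenile female New Zealand White rabbit of 17 to 19 weeks, and the 10 libraries carry 10 different animal numbers. Where the sham-operated vagina was sampled, and how long after surgery any group was taken, is not in the labels. The other 6 libraries, from native vaginas with no operation, entered the model to share the estimate of spread and are given as a background beside some of the results.

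A wound in a mucosal wall first draws neutrophils and then macrophages, and later lymphocytes, while fibroblasts lay down a provisional matrix that is replaced by fibrillar collagen. A scaffold left in the wound adds a foreign material, at whose surface macrophages gather and may fuse into giant cells. The vaginal wall itself is an epithelium on a vascular connective tissue, surrounded by smooth muscle that is threaded by nerve fibres with their Schwann cells. The question asked of these 10 libraries is what a graft of either kind adds to surgery alone.

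Gene-level totals lay between 20992063 and 30695000 counts per library, of which 22.9 to 28.5% carried no gene symbol and were set aside. The named counts were 15348880 to 22058343 in the graft libraries and 19615994 to 22481735 in the sham libraries (two-sided exact permutation test over 120 splits, p = 0.125, Benjamini-Hochberg adjusted over 5 library measures 0.354). Mitochondrial genes took 10.3 to 18.1% of named counts in the graft libraries and 9.53 to 12.6% in the sham libraries (exact permutation p = 0.142, adjusted 0.354). The smallest p that 7 against 3 libraries can give is 0.0167. Between libraries of a group, Spearman's rank correlation across genes was 0.979 to 0.986 among the 3 sham libraries, 0.937 to 0.974 among the acellular libraries and 0.858 to 0.984 among the PLATE libraries. Values below are in CPM, which scales each library's named counts to a common size with trimmed-mean factors. As a check of the tissue, ESR1, the oestrogen receptor, was at 396 to 436 CPM in sham, 324 to 467 beside the acellular graft and 46.8 to 447 beside PLATE, and HOXA13, a homeobox gene of the lower reproductive tract, was at 28.5 to 36.0, 19.1 to 33.7 and 6.14 to 32.5 CPM. The library PLATE 1 had the lowest value of both genes among the 10. It stood apart from the other PLATE libraries in many genes, and list medians that move by over 1.5 times when it is left out are also given without it.

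No gene passed the test in the mean of both grafts against sham: 0 of 10942 genes tested (0%) had an adjusted p under 0.05 in edgeR's quasi-likelihood test with Benjamini-Hochberg adjustment. The smallest adjusted p was 0.728. At an unadjusted p under 0.05 there were 706 genes, 351 with a higher mean beside the grafts (3.21% of genes tested) and 355 with a lower mean (3.24%). Acellular against sham and PLATE against sham also gave 0 called genes each, with 533 and 821 genes at an unadjusted p under 0.05. At that threshold 547 genes would be expected by chance in each comparison. The 2 grafts leaned opposite ways: 193 higher and 340 lower for acellular, 640 higher and 181 lower for PLATE. In these 2 comparisons with sham DESeq2 called 1 and 14 genes, and voom with quality weights called 72 for acellular and 0 for PLATE. These 2 comparisons share the 3 sham libraries, so their values are set side by side below and not counted as separate evidence. PLATE against acellular, which does not use the sham libraries, gave 0 called genes and 515 genes at an unadjusted p under 0.05 (4.71%), and DESeq2 called 1. Log2 fold changes had a median standard error of 0.30, and that is not a limit above which differences were detected. Larger ones, such as -1.04 for GPAT3 and 5.35 for CSF3R in the mean of both grafts, were not called by edgeR either. The count of 0 depended on the method: limma's voom with quality weights, which gives less weight to libraries that stray from their group, called 404 genes (3.69%), 182 higher (1.66%) and 222 lower (2.03%), with adjusted p between 0.0336 and 0.0499. DESeq2 and voom without quality weights called 0, and edgeR on the 10 libraries alone called 2. In what follows, higher and lower describe values, and no gene is said to have changed.

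Another description, which is not a test, asks whether the libraries overlap at all. In 222 of the 10942 genes (2.03%) every one of the 7 graft libraries lay above every one of the 3 sham libraries, and in 308 genes (2.81%) every graft library lay below. These counts were 650 and 572 without acellular 6, and 432 and 531 without sham 12, 424 and 502 without sham 14, and 359 above without sham 11. Of the 222 and 308 genes, 211 and 303 had a symbol, a mean of at least 1 CPM and the same sign in both grafts. From each set the 12 genes with the smallest p in the weaker of the 2 grafts were taken, which gives 24 genes that lay alike beside both. Each had an unadjusted p under 0.05 in both grafts and an adjusted p of 0.728 in the mean of both (edgeR). Since the p-values chose the genes, they are a description. In bulk tissue, fewer cells of a type and less RNA per cell cannot be told apart, here and in every result that follows.

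**Figure D1:**
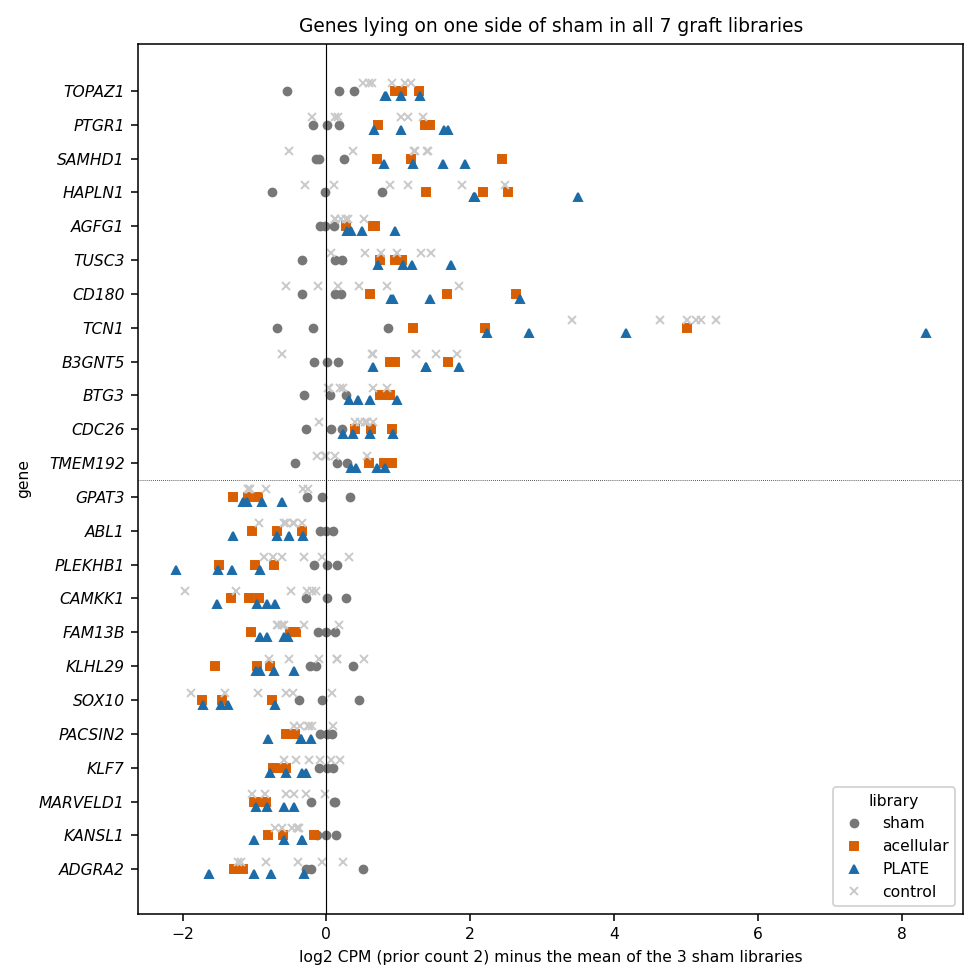
The 24 genes whose 7 graft libraries all lay on one side of the 3 sham libraries, 12 higher (top) and 12 lower (bottom). Each symbol is 1 library, and the horizontal axis is its log2 CPM minus the mean of the 3 sham libraries. Acellular and PLATE libraries lie on the same side by the choice of genes. The control libraries, which were not operated on, often lie among the graft libraries and not around sham. Choosing genes with sham apart from the grafts can by itself give this position of control.

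PTGR1, among the 12 higher genes, encodes a reductase that inactivates prostaglandins and leukotriene B. It was at 46.0, 35.6 and 40.8 CPM in sham libraries 11, 12 and 14, at 66.9, 105.4 and 110.7 in acellular libraries 6, 8 and 10, and at 131, 83.4, 126 and 64.4 in PLATE libraries 1, 5, 9 and 13. The lowest graft library was PLATE 13, still above all sham libraries. The log2 fold change of PTGR1 was 1.26 ± 0.35 for the mean of both grafts, 1.21 for acellular and 1.31 for PLATE. Here and below, ± marks the standard error of the fit, with 3 acellular and 4 PLATE libraries against 3 sham libraries.

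SAMHD1 encodes an enzyme that breaks down deoxynucleotides and restricts viruses in myeloid cells. It was at 42.5, 53.9 and 41.0 CPM in sham, at 73.8, 102.95 and 249 in acellular and at 104.9, 173, 79.1 and 140 in PLATE libraries, listed in the same order. Acellular library 10 was the highest, and the groups did not overlap. This gave a log2 fold change of 1.53 ± 0.44, with 1.63 for acellular and 1.44 for PLATE.

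HAPLN1 encodes the link protein that ties hyaluronan to proteoglycans in extracellular matrix. Its CPM was 0.652, 2.06 and 1.15 in sham, 5.61, 7.19 and 3.21 in acellular and 14.2, 5.15, 5.18 and 5.21 in PLATE libraries. PLATE 1 was far above the other PLATE libraries, which were nearly equal, and the log2 fold change was 2.28 ± 0.66. TOPAZ1, a gene known from germ cells, was at 3.31, 6.42 and 5.52 CPM in sham, 12.1, 10.3 and 9.57 in acellular and 12.2, 10.1, 8.79 and 8.71 in PLATE libraries. Its 7 graft libraries lay close together, with a log2 fold change of 1.02 ± 0.25.

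CD180, a Toll-like receptor relative of B cells and macrophages, was at 2.70, 3.97 and 3.75 CPM in sham, 5.29, 11.2 and 21.9 in acellular and 22.6, 6.59, 6.49 and 9.49 in PLATE libraries. Acellular 10 and PLATE 1 were the high libraries, and the log2 fold change was 1.79 ± 0.60. TCN1 encodes the vitamin B12 binder of neutrophil granules. It had 0, 4 and 1 counts in the sham libraries. In CPM it was at 0.639, 0.269 and 5.08 in acellular and at 51.6, 0.655, 2.77 and 1.03 in PLATE libraries, and control libraries were at 1.61 to 6.76 CPM, so sham was the group with few counts. The fitted log2 fold change of 6.01 ± 1.72 rests on those few sham counts and on PLATE 1, and was 4.40 without PLATE 1.

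The other higher genes had log2 fold changes between 0.54 and 1.31. TUSC3, which encodes a subunit of the oligosaccharyltransferase that glycosylates proteins, had a log2 fold change of 1.06 ± 0.29, and B3GNT5, a glycosyltransferase that starts lacto-series glycolipids, one of 1.31 ± 0.43. BTG3, an antiproliferative gene, was at 0.70 ± 0.21. TMEM192, a lysosomal membrane protein, was at 0.65 ± 0.20, CDC26, a subunit of the anaphase-promoting complex, at 0.60 ± 0.20, and AGFG1, an ArfGAP-related protein of vesicle traffic, at 0.54 ± 0.16. In AGFG1 the acellular and PLATE values were equal to the second decimal.

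GPAT3 headed the 12 lower genes and had the smallest unadjusted p of all genes in the mean of both grafts (0.000163). It encodes a glycerol-3-phosphate acyltransferase, which starts the synthesis of triglycerides and phospholipids. GPAT3 was at 61.9, 53.3 and 80.5 CPM in sham, at 33.1, 30.0 and 26.0 in acellular and at 28.7, 34.5, 41.8 and 29.8 in PLATE libraries. The graft libraries of GPAT3 spanned a narrow range below sham, and the log2 fold change was -1.04 ± 0.21, with -1.13 for acellular and -0.95 for PLATE. Control libraries were at 30.3 to 53.8 CPM, from the graft level up to just inside the sham range.

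ADGRA2, an adhesion receptor known as a Wnt co-receptor in blood vessels of the brain, was at 175, 105.8 and 100.8 CPM in sham, at 50.8, 50.3 and 55.3 in acellular and at 39.5, 71.9, 61.5 and 99.2 in PLATE libraries. The acellular libraries were almost the same, whereas PLATE 13 came close to sham. For ADGRA2 this is a log2 fold change of -1.09 ± 0.31. CAMKK1, a kinase of the calmodulin pathway, was at -1.07 ± 0.32, and KLHL29, a Kelch-like protein, was at -0.94 ± 0.26.

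MARVELD1, a membrane protein of the MARVEL family, had a log2 fold change of -0.84 ± 0.25. FAM13B was at -0.68 ± 0.19 and the tyrosine kinase ABL1 at -0.66 ± 0.19. KLF7, a zinc-finger factor, was at -0.57 ± 0.17, KANSL1, the scaffold of a histone acetyltransferase complex, at -0.53 ± 0.16 and PACSIN2, a membrane-bending protein of endocytosis, at -0.45 ± 0.14. The remaining lower genes, SOX10 and PLEKHB1, belong to the nerve list and are described with it.

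Control libraries were then set beside these genes. Of the 222 genes with all graft libraries above sham, the control mean lay nearer to the graft mean in 51.4%. Of the 308 genes with all graft libraries below sham, it lay nearer to the graft mean in 61.7%. In 34 and 44 of these genes, the 6 control libraries were also all on the graft side of sham. Graft libraries that stood apart from both sham and control were found in 1 of the 222 and 0 of the 308. Among the 24 genes taken by rule, the control mean was nearer to the grafts in 6 of 12 higher and 9 of 12 lower genes. All these genes were chosen because sham lay apart from the grafts, and that choice by itself can place control nearer to the grafts. Since the same shares were not computed over all genes tested, these counts only describe the chosen genes.

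The 1 gene apart from both was IL23R, named after its values were seen, which encodes the interleukin-23 receptor of T helper 17 and innate lymphoid cells. It had 1, 5 and 2 counts in sham, 26, 7 and 8 in acellular, 45, 13, 7 and 13 in PLATE and 3, 7, 4, 2, 4 and 0 in control libraries. Graft libraries were thus at 0.366 to 2.91 CPM, sham libraries at 0.0466 to 0.239 and control libraries at 0 to 0.280. Acellular 6 and PLATE 1 were the high libraries in counts. IL23R had a log2 fold change of 2.78 ± 0.94 with an adjusted p of 0.728 (edgeR), and the counts are few.

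Gene lists were then described by the number of their tested members that were higher or lower and by the median log2 fold change. Over all genes tested, 5787 (52.9%) were positive and 5155 (47.1%) negative, with a median of 0.02. No member of any list was called by edgeR over all 16 libraries (0%). Voom with quality weights, which called 3.69% of all genes, called 8 of 16 MHC class II, 5 of 22 Schwann cell and nerve and 5 of 29 macrophage genes. It called 4 of 29 T and NK cell, 4 of 36 interferon response and 3 of 31 smooth muscle genes. Calls were 2 of 21 complement and coagulation, 2 of 23 B and plasma cell, 2 of 29 neutrophil and 2 of 36 TGF-beta genes. They were 1 of 31 foreign body giant cell, 1 of 37 Wnt and 1 of 38 fibrillar matrix genes, and 0 in every other list. The lists farthest from the median of all genes fell into a set with higher levels beside grafts, all of them immune or complement lists, and a pair with lower levels, smooth muscle and Schwann cell or nerve.

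**Figure D2:**
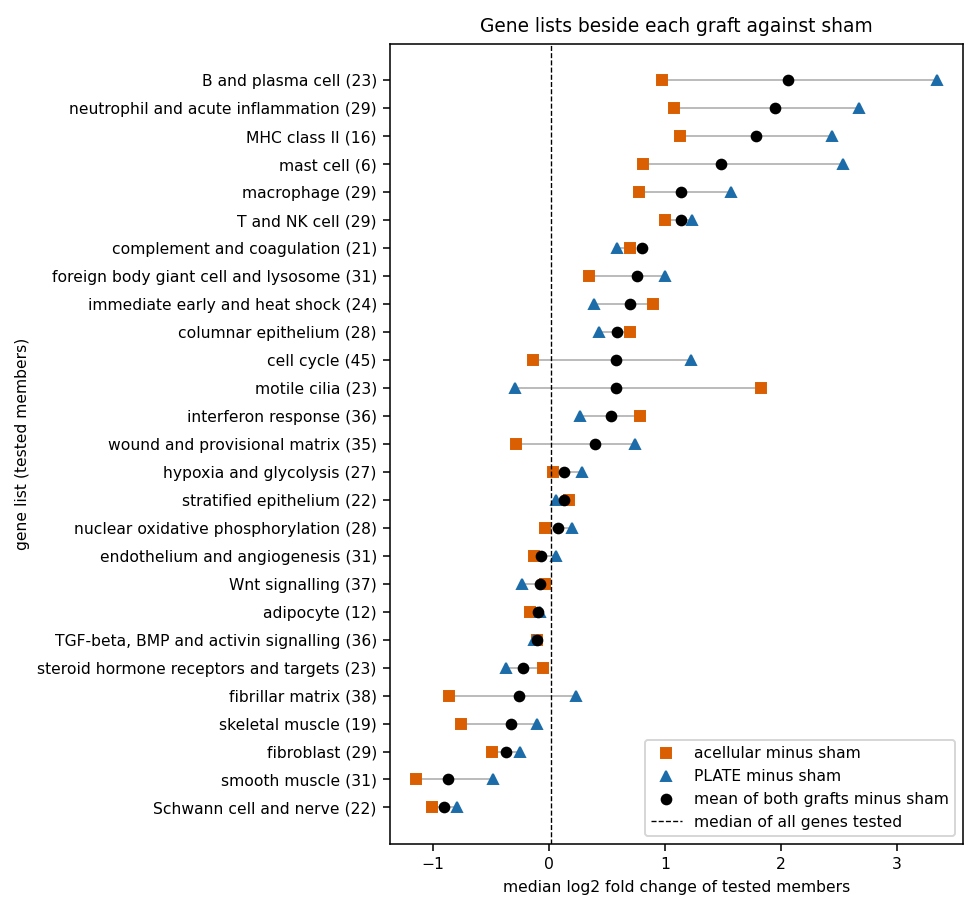
Median log2 fold change of the tested members of 27 gene lists, with the number of tested members in brackets. Circles are the mean of both grafts against sham, squares acellular against sham and triangles PLATE against sham; the last 2 share the sham libraries. The immune lists lie to the right with PLATE farther out than acellular in most, and smooth muscle and Schwann cell lie to the left beside both grafts.

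Schwann cell and nerve genes were lower beside both grafts. Of 22 tested members 17 were lower and 5 higher, and the median log2 fold change was -0.90 for the mean of both grafts, -1.01 for acellular and -0.79 for PLATE. In 7 members all graft libraries lay below all sham libraries, against 2.81% of all genes, and 9 had an unadjusted p under 0.05 with a lower mean, against 3.24% of all genes. The mean log2 CPM of the list was 3.44 to 3.71 in sham, 2.57 to 3.27 beside the acellular graft and 2.39 to 3.23 beside PLATE, so that 7 of 7 graft libraries were below sham. Control libraries ranged from 2.60 to 3.70 and covered only part of the graft values. PLATE 1 (2.39), PLATE 9 (2.51) and acellular 10 (2.57) lay below every control library, and sham 12 (3.707) lay at their top. Leaving out any 1 library kept the median between -1.03 and -0.75.

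SOX10, the transcription factor that specifies and maintains Schwann cells, was at 3.91, 7.04 and 4.90 CPM in sham, at 3.01, 1.81 and 1.48 in acellular and at 1.49, 1.79, 1.94 and 3.10 in PLATE libraries. Every graft library was below the lowest sham library. SOX10 had a log2 fold change of -1.33 ± 0.40, with -1.32 for acellular and -1.34 for PLATE. L1CAM, an adhesion molecule of axons and Schwann cells, was at 13.1, 21.4 and 17.5 CPM in sham, at 5.93, 4.70 and 3.80 in acellular and at 4.20, 6.99, 5.23 and 12.4 in PLATE libraries. PLATE 13 came nearest to sham in L1CAM, as it did in SOX10, and the log2 fold change was -1.56 ± 0.44.

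PLEKHB1, a pleckstrin-homology protein found in myelinating cells and photoreceptors, was at 6.47, 7.13 and 5.68 CPM in sham, at 3.83, 3.16 and 2.22 in acellular and at 1.42, 3.32, 2.197 and 2.51 in PLATE libraries. Its log2 fold change was -1.25 ± 0.31. Other members whose libraries did not overlap, named after their values were seen, include SCN7A (-1.32 ± 0.60), a sodium channel of Schwann cells, CDH19 (-1.31 ± 0.59), a cadherin of the Schwann lineage, and MATN2 (-0.81 ± 0.32), a matrilin of the nerve sheath. SCN7A was at 45.7 to 88.96 CPM in sham, 15.1 to 44.8 beside the acellular graft and 7.31 to 33.7 beside PLATE. Control values of SCN7A reached from 12.7 to 124 CPM, covering most of the graft and sham values.

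Smooth muscle genes were lower beside both grafts, and more so beside the acellular one. Of 31 tested members 30 were lower and 1 higher, with a median of -0.87, and the medians were -1.14 for acellular and -0.48 for PLATE. In 9 members all graft libraries lay below sham, against 2.81% of all genes, and 7 had an unadjusted p under 0.05 with a lower mean, against 3.24% of all genes. The mean log2 CPM of the list was 8.58 to 8.96 in sham, 7.30 to 7.64 beside the acellular graft and 7.74 to 8.57 beside PLATE, so that 7 of 7 graft libraries were below sham, the highest PLATE library by very little. The control libraries ran from 7.10 to 9.85, wider than all operated groups together. Leaving out any 1 library kept the median between -0.94 and -0.75.

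PPP1R12B, the myosin phosphatase subunit that relaxes muscle, was at 364, 191 and 198 CPM in sham, at 86.3, 38.7 and 35.3 in acellular and at 21.9, 186, 68.2 and 135 in PLATE libraries. PLATE 5 was just under the sham libraries, and PLATE 1 was the lowest of all. For the mean of both grafts the log2 fold change was -1.76 ± 0.59, with -2.23 for acellular and -1.29 for PLATE. SMTN encodes smoothelin, a cytoskeletal protein of contractile smooth muscle. It was at 988, 727 and 671 CPM in sham, at 182, 230 and 190 in acellular and at 412, 491, 424 and 461 in PLATE libraries. Here the 3 groups formed 3 separate levels, with PLATE between acellular and sham, and the log2 fold change was -1.41 ± 0.52. Control libraries were at 151 to 1984 CPM of SMTN, a wider range than that of all 3 groups together. SMTN was 1 of the 2 genes called by edgeR on the 10 libraries alone, with an adjusted p of 0.0223.

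LDB3, a Z-disc protein, was at 70.6, 36.4 and 35.7 CPM in sham, at 10.1, 13.8 and 8.29 in acellular and at 10.2, 37.6, 11.1 and 32.4 in PLATE libraries. PLATE 5 lay among the sham libraries, so the groups overlapped, and the log2 fold change was -1.60 ± 0.61. DES, the muscle intermediate filament desmin, was at 4220 to 6077 CPM in sham, 1000 to 2045 beside the acellular graft and 3386 to 5814 beside PLATE, with a log2 fold change of -0.92 ± 0.62. Desmin was thus below sham in the acellular libraries and overlapped sham in the PLATE libraries.

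Other smooth muscle members whose libraries did not overlap were named after their values were seen. They include MYOCD (-0.87 ± 0.42), the coactivator that switches on smooth muscle genes, the potassium channel subunits KCNMA1 (-0.80 ± 0.40) and KCNMB1 (-0.94 ± 0.47), PLN (-0.93 ± 0.52), which restrains the calcium pump, and the cytoskeletal proteins PDLIM3 (-1.14 ± 0.47), CSRP1 (-1.02 ± 0.47) and NEXN (-0.78 ± 0.39). MYOCD was at 153 to 173 CPM in sham, 68.6 to 94.7 beside the acellular graft and 31.9 to 134 beside PLATE. In MYOCD the sham libraries lay within a narrow range and the PLATE libraries within a broad one.

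**Figure D3:**
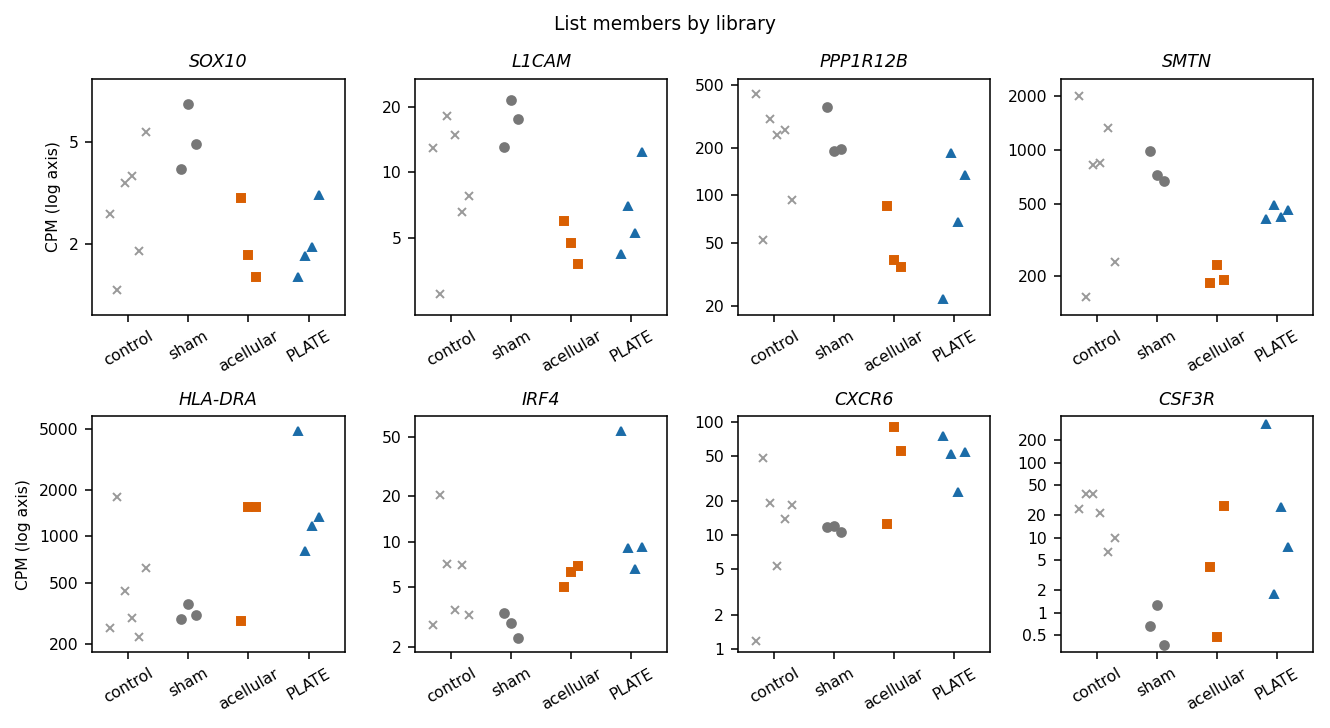
CPM of 8 list members in each library on a log axis, with control, sham, acellular and PLATE libraries from left to right. SOX10, L1CAM, PPP1R12B and SMTN (top) are lower in every graft library than in sham; of HLA-DRA, IRF4, CXCR6 and CSF3R (bottom), IRF4 and CXCR6 are higher in every graft library, while acellular library 6 of HLA-DRA and library 8 of CSF3R lie at the sham level.

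Connective tissue lists were lower by less. Of 29 fibroblast genes 23 were lower and 6 higher, with a median of -0.37 (-0.49 for acellular, -0.25 for PLATE), and 6 of the lower ones had an unadjusted p under 0.05, against 3.24% of all genes. In 2 members the graft libraries were all below sham, against 2.81% of all genes: DPT (-0.96 ± 0.42), dermatopontin of the collagen matrix, and TWIST2 (-0.97 ± 0.46), a mesenchymal transcription factor. Fibrillar matrix genes were 25 lower and 13 higher of 38, with a median of -0.26, and the grafts lay apart: 35 of 38 were lower beside the acellular graft (median -0.86) and 27 of 38 higher beside PLATE (median 0.24). Without sham 11 the fibrillar matrix median was 0.05 and without PLATE 1 it was -0.49, and -0.41 without sham 14, so the sign for the mean of both grafts rests on sham 11. FMOD, fibromodulin, which organises collagen fibrils, was the 1 of 38 with every graft library below sham, against 2.81% of all genes, at 4.16 to 5.31 CPM in sham, 1.23 to 2.42 beside the acellular graft and 1.42 to 2.75 beside PLATE.

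Antigen presentation genes were higher beside both grafts. All 16 tested members of the MHC class II list lay above 0 in the mean of both grafts, with a median log2 difference of 1.79 (1.13 for acellular, 2.45 for PLATE), and 10 of the 16 had an unadjusted p under 0.05, against 3.21% of all genes. The mean log2 CPM was 3.62 to 3.85 in sham, 3.42 to 5.13 beside the acellular graft and 4.60 to 6.96 beside PLATE. Thus 6 of 7 graft libraries were above sham, and acellular library 6 was below it. Control libraries lay between 3.46 and 5.46. Without PLATE 1 the median was 1.30.

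HLA-DRA, the alpha chain of an MHC class II molecule, was at 290, 364 and 309 CPM in sham, at 283, 1565 and 1552 in acellular and at 4844, 799.9, 1168 and 1345 in PLATE libraries. Acellular 6 sat at the sham level, PLATE 1 stood highest, and the log2 fold change was 2.24 ± 0.80. HLA-DMB, which helps to load peptides on MHC class II, had the same low and high libraries, at 34.4, 35.0 and 27.7 CPM in sham, 18.7, 135 and 236 in acellular and 412, 88.0, 121 and 122 in PLATE libraries. Its log2 fold change was 2.26 ± 0.77. MHC genes have close copies, and reads shared between them could have been split in counting.

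CCR7, the receptor that guides dendritic and T cells to lymph nodes, was at 1.12, 0.575 and 1.07 CPM in sham, at 1.09, 2.89 and 2.71 in acellular and at 29.4, 3.97, 2.25 and 5.21 in PLATE libraries. The log2 fold change of CCR7 was 2.36 ± 0.75, and the 2 grafts differed at an unadjusted p of 0.0126 (adjusted 0.875, edgeR). CIITA, the master regulator of MHC class II transcription, was the 1 of 16 with no overlap, against 2.03% of all genes, and was named after its values were seen. It was at 1.89 to 2.05 CPM in sham, 2.10 to 10.1 beside the acellular graft and 5.24 to 42.7 beside PLATE. The 42.7 CPM was PLATE 1, against 5.24 to 10.6 in the other PLATE libraries. CIITA had a log2 fold change of 2.41 ± 0.96.

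Lymphocyte lists were higher as well. T and NK cell genes were 28 higher and 1 lower of 29, with a median of 1.14 that was close in both grafts (1.00 for acellular, 1.24 for PLATE) and went to 0.95 when PLATE 1 was left out. B and plasma cell genes were 22 higher and 1 lower of 23, with a median of 2.06 that was 0.98 for acellular and 3.35 for PLATE, and 1.32 without PLATE 1. In both lists 6 of 7 graft libraries had a higher mean than every sham library, and the exception was acellular 6. Control list means ranged widely, at -1.05 to 2.32 log2 CPM for T and NK cell genes and 0.277 to 3.99 for B and plasma cell genes.

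CXCR6, a homing receptor of tissue-resident T and NK cells, was at 11.9, 12.0 and 10.7 CPM in sham, at 12.5, 89.3 and 54.9 in acellular and at 74.6, 52.4, 23.9 and 54.5 in PLATE libraries. Acellular 6 was barely above sham and the other 6 graft libraries were well above it. The log2 fold change of CXCR6 was 2.17 ± 0.82, with 2.18 for acellular and 2.15 for PLATE. ICOS, a co-stimulator of activated T cells, was at 0.885, 0.431 and 0.0823 CPM in sham, at 0.319, 4.23 and 2.17 in acellular and at 19.9, 1.44, 1.31 and 5.81 in PLATE libraries, with a log2 fold change of 3.09 ± 1.20. CD2, an adhesion receptor of T and NK cells, was at 1.75 ± 0.79. ZAP70 (0.96 ± 0.62), a kinase of T cell receptor signalling named after its values were seen, had all graft libraries at 8.26 to 17.0 CPM above sham at 6.27 to 6.94.

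TNFRSF17, the plasma cell receptor BCMA, was at 1.68, 1.72 and 1.89 CPM in sham, at 3.88, 5.24 and 5.72 in acellular and at 28.3, 3.76, 5.70 and 6.49 in PLATE libraries. No graft library overlapped sham, and the 6 other than PLATE 1 lay close together. TNFRSF17 had a log2 fold change of 2.06 ± 0.80. IRF4, a transcription factor of plasma cells and activated T cells, was at 3.35, 2.87 and 2.31 CPM in sham, at 5.02, 6.25 and 6.91 in acellular and at 54.5, 9.13, 6.59 and 9.25 in PLATE libraries, with a log2 fold change of 1.95 ± 0.75. For IRF4 this was 1.09 for acellular and 2.80 for PLATE, and the 2 grafts differed at an unadjusted p of 0.0449 (adjusted 0.875, edgeR). TNFRSF9 (2.60 ± 0.97), the co-stimulatory receptor 4-1BB of activated lymphocytes, was below every sham library in acellular 6 and above every one in the other 6 graft libraries. BLNK (1.05 ± 0.75), an adaptor of B cell receptor signalling named after its values were seen, was at 12.1 to 17.8 CPM in sham and 20.2 to 63.5 beside grafts.

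Macrophage genes were 28 higher and 1 lower of 29, with a median of 1.14 (0.78 for acellular, 1.57 for PLATE). Without PLATE 1 the macrophage median was 0.75. The mean log2 CPM of the list was 3.58 to 3.95 in sham, 3.50 to 5.10 beside the acellular graft, 4.11 to 6.40 beside PLATE and 3.09 to 5.24 in control libraries. CD53, a leukocyte tetraspanin, was at 17.7, 28.0 and 22.1 CPM in sham, at 20.6, 81.8 and 106.4 in acellular and at 575, 42.6, 60.5 and 62.9 in PLATE libraries. The value moved with PLATE 1: the log2 fold change of CD53 was 2.33 ± 0.84 with it and 1.46 without it. CSF2RB, the shared receptor chain for GM-CSF, interleukin-3 and interleukin-5, was at 2.72 ± 1.07 and at 1.72 without PLATE 1, and AIF1, a calcium-binding protein of macrophages, was at 1.61 ± 0.65 and at 1.00 without it. For CSF2RB the log2 fold change was 1.28 for acellular and 4.17 for PLATE, and the 2 grafts differed at an unadjusted p of 0.0203 (adjusted 0.875, edgeR).

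TLR2 (1.13 ± 0.58), a receptor for bacterial lipoproteins, was a macrophage member with no overlap and was named after its values were seen. It was highest in acellular 10 at 191 CPM, against 31.4 to 55.6 CPM in sham. Foreign body giant cell and lysosome genes were 29 higher and 2 lower of 31, with a median of 0.76 that was 0.33 without PLATE 1. The median was 0.35 for acellular and 1.00 for PLATE. The mean log2 CPM of this list was 4.42 to 5.77 in sham, 4.58 to 6.11 beside the acellular graft and 4.97 to 7.98 beside PLATE. Only 2 of 7 graft libraries were above every sham library, so the groups overlapped. In 3 of the 31 all graft libraries lay above sham, against 2.03% of all genes. NPC2 (0.78 ± 0.28), a lysosomal cholesterol carrier, was at 88.2 to 106.6 CPM in sham, 137 to 246 beside the acellular graft and 137 to 190 beside PLATE, and so was higher beside both grafts. HMOX1 (1.48 ± 0.66), haem oxygenase, was at 8.71 to 9.38 CPM in sham and 10.9 to 107.4 beside grafts. Its 107.4 CPM was PLATE 1, against 10.9 to 23.8 in the other graft libraries. ARG1 (4.73 ± 1.75), arginase, was at 0.373 to 1.11 CPM in sham and 1.19 to 458 beside grafts. Its 458 CPM was PLATE 1, against 1.19 to 8.63 in the other graft libraries. The log2 fold change of ARG1 was 2.203 for acellular and 7.25 for PLATE. The 2 grafts differed at an unadjusted p of 0.0116 (adjusted 0.875, edgeR). Control libraries held 1.37 to 18.1 CPM of ARG1, also above every sham library.

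**Figure D4:**
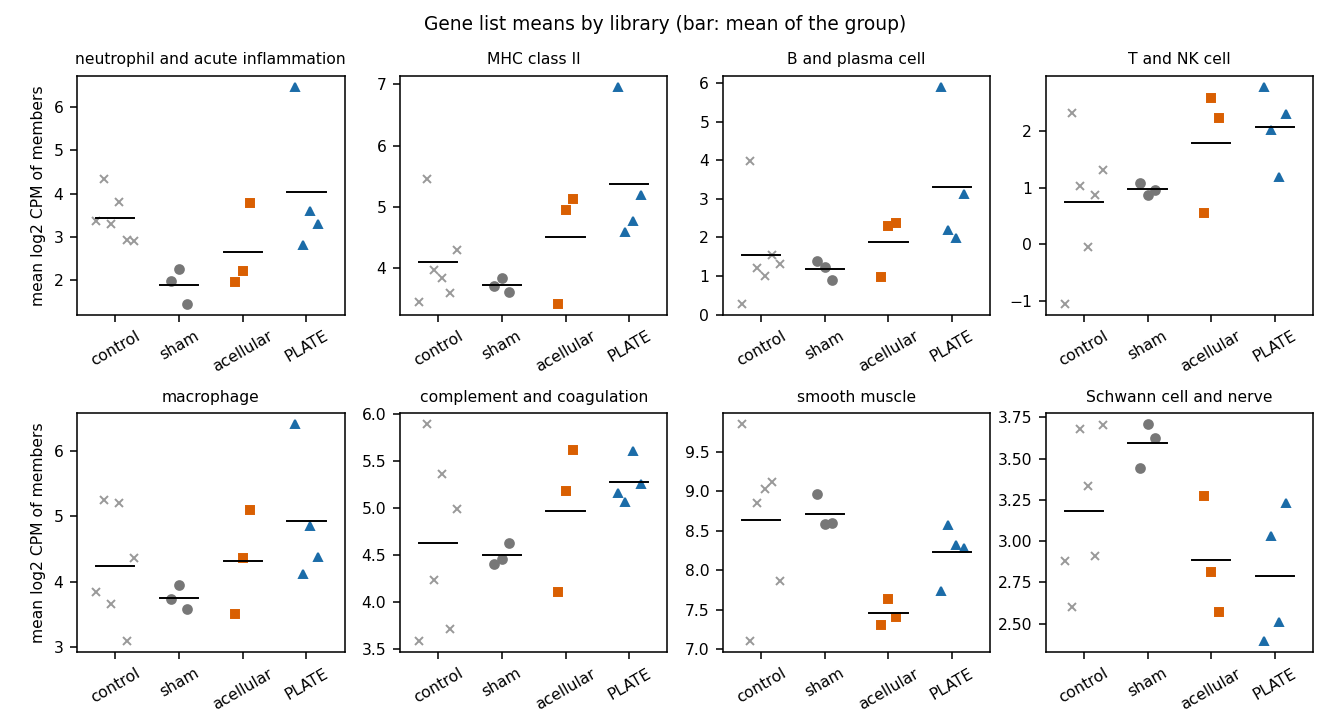
Mean log2 CPM of the members of 8 gene lists in each library, with a bar at the mean of each group; control, sham, acellular and PLATE libraries run from left to right. In the smooth muscle and Schwann cell panels all graft libraries lie below sham. In the neutrophil panel the control libraries lie above sham as well, and in several immune panels acellular library 6 lies at or below sham and PLATE library 1 is the top point.

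Neutrophil and acute inflammation genes were 27 higher and 2 lower of 29, with a median of 1.95 (1.08 for acellular, 2.68 for PLATE), and 11 had an unadjusted p under 0.05 with a higher mean, against 3.21% of all genes. The list mean was 1.44 to 2.24 log2 CPM in sham, 1.94 to 3.79 beside the acellular graft, 2.81 to 6.48 beside PLATE and 2.90 to 4.35 in control libraries. All control libraries were therefore above sham too. Without PLATE 1 the median was 1.18.

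CSF3R, the receptor for the neutrophil growth factor G-CSF, was at 0.652, 1.24 and 0.371 CPM in sham, at 4.06, 0.470 and 26.4 in acellular, at 332, 1.79, 25.8 and 7.53 in PLATE and at 6.38 to 38.1 in control libraries. The sham libraries were below every control library, and acellular 8 was at the sham level. The log2 fold change of CSF3R was 5.35 ± 1.67, with 3.78 for acellular and 6.92 for PLATE, and 3.86 without PLATE 1. S100A9, a calcium-binding protein abundant in neutrophils, was at 5.22, 9.24 and 1.40 CPM in sham, at 5.97, 14.2 and 109.4 in acellular and at 1191, 19.5, 101.3 and 48.0 in PLATE libraries, with 29.5 to 218 in control. S100A9 had a log2 fold change of 4.52 ± 1.47, with 3.03 for acellular and 6.01 for PLATE, and 3.22 without PLATE 1. Between the 2 grafts the unadjusted p was 0.0486 for CSF3R and 0.0476 for S100A9 (adjusted 0.875 for each, edgeR).

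Among members with no overlap, named after their values were seen, CXCR1 (4.12 ± 1.35), a receptor for interleukin-8, was at 1.03 to 3.03 CPM in sham, 4.83 to 26.2 beside the acellular graft, 3.62 to 330 beside PLATE and 3.94 to 38.9 in control libraries. IL1B (4.99 ± 1.86), interleukin-1 beta, was at 0.659 to 2.2025 CPM in sham and 2.22 to 10.95 in acellular, and was at 1895 CPM in PLATE 1 against 4.45 to 11.3 in the other PLATE libraries. For CXCR1 the top value was also PLATE 1, against 3.62 to 33.3 CPM in the other PLATE libraries. The 2 grafts differed at an unadjusted p of 0.0357 for CXCR1 and 0.0056 for IL1B (adjusted 0.875 for each, edgeR). Control libraries of IL1B were at 10.1 to 106.3 CPM. The sham libraries were thus the lowest group for these neutrophil genes, below the native vagina.

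PTPRC, the pan-leukocyte marker CD45, was at 35.2, 50.3 and 47.6 CPM in sham, at 36.5, 111.1 and 128 in acellular, at 445, 81.1, 65.3 and 132 in PLATE and at 26.0 to 163 in control libraries. Its log2 fold change was 1.54 ± 0.68. As in most immune lists, acellular 6 was at the sham level and PLATE 1 highest, and the part of leukocyte content in the other differences was not tested. The small mast cell list was 6 higher of 6, with a median of 1.48 that was 0.41 without PLATE 1.

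Complement and coagulation genes were 19 higher and 2 lower of 21, with similar medians beside both grafts (0.70 for acellular, 0.59 for PLATE, 0.80 for the mean of both). F5, coagulation factor V, was at 1.16, 1.34 and 0.823 CPM in sham, at 1.55, 4.57 and 6.22 in acellular and at 22.3, 4.02, 4.60 and 7.13 in PLATE libraries. All graft libraries were above sham, and the log2 fold change was 2.49 ± 0.80. CFB, complement factor B, was at 32.6, 34.8 and 35.6 CPM in sham, at 31.9, 128 and 278 in acellular and at 36.5, 156, 105.5 and 128 in PLATE libraries. The sham values were nearly equal, acellular 6 and PLATE 1 were close to them, and the log2 fold change was 1.86 ± 0.90. C5AR1, the receptor for complement C5a, was at 1.67 ± 0.79, and at 0.96 without PLATE 1. F2RL1 (0.96 ± 0.59), a protease-activated receptor named after its values were seen, was at 10.7 to 18.2 CPM in sham and 20.0 to 37.7 beside grafts.

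Interferon response genes were 27 higher and 9 lower of 36, with a median of 0.53 that was larger beside acellular (0.79) than beside PLATE (0.27), a difference between lists that was not tested. Leaving out acellular 10 took this median to 0.27, and leaving out sham 11 took it to 0.26. In 1 of the 36 all graft libraries lay above sham, a share near the 2.03% of all genes. It was IDO1 (4.15 ± 1.31), the tryptophan-degrading enzyme induced by interferon gamma, named after its values were seen. IDO1 was at 2.42 to 6.94 CPM in sham, 7.34 to 53.1 beside the acellular graft and 16.1 to 1081 beside PLATE. The 1081 CPM was PLATE 1, against 16.1 to 48.75 in the other PLATE libraries. The log2 fold change of IDO1 was 2.43 for acellular and 5.87 for PLATE. Between the 2 grafts the unadjusted p was 0.0175 (adjusted 0.875, edgeR). Control libraries held 13.5 to 87.0 CPM of IDO1, again above every sham library.

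The cell cycle, wound matrix and cilia lists did not point the same way beside both grafts. Cell cycle genes were 41 higher and 4 lower of 45 in the mean of both grafts, with a median of 0.58, but the median was -0.14 for acellular and 1.22 for PLATE. It was 0.04 without PLATE 1, 1.40 without sham 11, 0.30 without acellular 10 and 0.22 without sham 14. Wound and provisional matrix genes had a median of 0.39 (-0.28 for acellular, 0.74 for PLATE), which was -0.14 without PLATE 1, 0.23 without acellular 6 and 0.20 without acellular 8. Motile cilia genes, the axoneme parts of ciliated epithelium, had a median of 0.58 that was 1.83 for acellular and -0.29 for PLATE, and -0.37 without acellular 10.

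Most columnar epithelium genes were higher beside both grafts, while the stratified epithelium median lay near that of all genes. In mean log2 CPM of the columnar list, 5 of 7 graft libraries were above every sham library and 1, PLATE 1, was below. Of its members 0 had an unadjusted p under 0.05 with a higher mean (edgeR), against 3.21% of all genes. Columnar epithelium genes were 26 higher and 2 lower of 28, with a median of 0.59 (0.70 for acellular, 0.44 for PLATE) that was 0.37 without acellular 10. CDH1, the epithelial cadherin, was at 56.4, 67.99 and 99.3 CPM in sham, at 92.0, 119 and 238 in acellular and at 13.7, 151, 110 and 90.5 in PLATE libraries, with a log2 fold change of 0.65 ± 0.84. The groups overlapped widely. Stratified epithelium genes had a median of 0.13, which was 0.52 without sham 14, 0.26 without PLATE 1 and -0.01 without sham 11. KRT5, the basal keratin, was at 3.07, 9.58 and 36.4 CPM in sham, 12.0, 7.06 and 4.64 in acellular and 19.6, 17.0, 4.34 and 3.69 in PLATE libraries. The KRT5 log2 fold change of -0.80 ± 0.87 became 0.57 when sham 14, the highest library, was left out.

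Signalling and metabolic lists lay near the median of all genes. The medians were -0.07 for endothelium and angiogenesis, -0.07 for Wnt signalling, -0.11 for the TGF-beta, BMP and activin pathway, 0.13 for hypoxia and glycolysis, 0.08 for nuclear oxidative phosphorylation, -0.09 for adipocyte and -0.22 for steroid hormone receptors and targets. Each of these medians moved by over 1.5 times when some single library was left out. Endothelium went as far as 0.03 without sham 11, Wnt signalling to -0.33 without acellular 6, the TGF-beta pathway to -0.20 without acellular 6 and steroid receptors to -0.08 without sham 14. Without PLATE 1 the medians were 0.05 for hypoxia, -0.0018 for oxidative phosphorylation, -0.03 for adipocyte, -0.12 for steroid receptors, -0.04 for the TGF-beta pathway and -0.03 for endothelium. All graft libraries lay below sham in 1 of 36 TGF-beta, 2 of 37 Wnt and 1 of 23 steroid receptor genes, against 2.81% of all genes. They lay above sham in 1 of 27 hypoxia genes, against 2.03% of all genes. Counts of 1 or 2 are too few to set a list apart from these shares. Values of 4 of these genes, named after their values were seen, follow as a description. WNT2B (-0.93 ± 0.23), a Wnt ligand, was at 17.0 to 26.0 CPM in sham, 7.005 to 10.1 beside the acellular graft and 10.2 to 15.4 beside PLATE, with an unadjusted p of 0.00112. BMPR1A (-0.66 ± 0.30), a type I BMP receptor, was at 99.3 to 109.3 CPM in sham, 56.7 to 89.3 beside the acellular graft and 22.8 to 78.3 beside PLATE. HOXA10 (-0.65 ± 0.32), a homeobox gene of the uterus and upper tract, was at 13.6 to 15.5 CPM in sham and 4.07 to 13.0 beside grafts. PFKFB3 (1.32 ± 0.62), a regulator of glycolysis, was at 36.1 to 43.5 CPM in sham, 52.6 to 155 beside the acellular graft and 69.9 to 134 beside PLATE, so that every graft library was above sham while the list as a whole was near 0.

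Immediate early and heat shock genes, which respond within minutes to handling as well as to injury, were 17 higher and 7 lower of 24, with a median of 0.70 that was 0.26 without acellular 6, 0.44 without PLATE 5 and 0.46 without PLATE 1. Skeletal muscle genes, a check for striated muscle of the pelvic floor in the samples, were 12 lower and 7 higher of 19, with a median of -0.32. The skeletal muscle median was -0.50 without acellular 6, -0.52 without PLATE 5 and -0.19 without PLATE 9. Their part in the other results was not tested.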

How the data were processed

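Poly(A) RNA of rabbit vagina was sequenced as stranded libraries, per the labels' protocols. Reads were handled with FastQC, HISAT2 2.2.1 and featureCounts, per the submitters' processing notes; the genome build, annotation and strand setting are not given in the sources used here. The deposited table holds the authors' raw counts per gene symbol. The row of counts without a symbol was left out, leaving 13001 genes, 625 of them with no count. Genes were filtered with filterByExpr (10942 tested), scaled by TMM and fitted with edgeR 4.0.16 (quasi-likelihood, R 4.3.3) over all 16 libraries with a mean per group. The contrast was the mean of acellular and PLATE minus sham, with Benjamini-Hochberg adjustment and a threshold of 0.05. Standard errors were taken from the fold change and F. Log2 CPM used a prior count of 2.

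Named genes were the first 12 higher and 12 lower genes with a symbol, a mean CPM of at least 1, all 7 graft libraries on one side of sham and the same sign in both grafts, ordered by the larger of the 2 p-values, the 3 members with the smallest p from each of the 8 lists of at least 8 tested members farthest from the median of all genes, and 6 check genes. The 27 lists held 1060 distinct genes. The members and lists were chosen with earlier results of these data known. Alternatives were DESeq2 1.42.0, limma 3.58.1, other scalings and filters, and leaving out each library; voom without quality weights was chosen after seeing the data. The fitting steps were tested on simulated data. Animal number 9 occurs in both the control and the PLATE group. Some genes that the rule names are not reported here.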

Additional observations from a re-analysis of the deposited data

Results flagged for a closer look

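In groups of 4 to 10 libraries, a library was singled out when its gap to the nearest other was large for the range of its group. Of 87 groups of values, 9 were singled out, and chance does so in about 1 group in 20. Most groups are values of the same 4 PLATE libraries and so are not independent, and the count cannot be judged against that rate. PLATE 1 accounted for 8 of the 9 groups singled out. HAPLN1 was at 14.2 CPM in PLATE 1 against 5.15 to 5.21 in the other PLATE libraries, IRF4 at 54.5 against 6.59 to 9.25, CD53 at 575 against 42.6 to 62.9 and ESR1 at 46.8 against 346 to 447. The first 3 of these genes were higher beside the grafts than in sham, and for each the remaining PLATE libraries were also above sham.

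The mean log2 CPM of the columnar epithelium list was 3.55 in PLATE 1 against 5.38 to 5.65 in the other PLATE libraries, that of Wnt signalling 2.58 against 3.46 to 3.603, that of steroid hormone receptors and targets 3.55 against 4.93 to 5.11, and that of hypoxia and glycolysis 6.29 against 5.28 to 5.41. The stratified epithelium list was not singled out. Control 2 had 10797 genes with a count, the fewest of the control libraries, and enters the graft comparison only through the shared spread.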

How the results depend on the processing

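For the mean of both grafts against sham, edgeR called 0 genes, limma's voom with quality weights 404 and edgeR on the 10 graft and sham libraries alone 2, MCAM and SMTN. For acellular against sham the count of 0 became 1 with DESeq2, 72 with voom with quality weights and 2 with the 10 libraries alone. For PLATE against sham it became 14 with DESeq2, and for PLATE against acellular 1 with DESeq2. The cause was not tested. Leaving out each library gave 0 called genes in all 4 comparisons. The voom weights gave PLATE 1 a weight of 0.185 and sham 12 one of 3.64. The count of genes with all graft libraries above sham was 220 to 650 when 1 library was left out, 650 without acellular 6, 432 without sham 12, 424 without sham 14 and 359 without sham 11. The count below sham was 307 to 572, 572 without acellular 6, 531 without sham 12 and 502 without sham 14. Fewer libraries make separation easier by construction. The log2 fold change of KRT5 ranged from -1.29 without sham 11 to 0.57 without sham 14, a reversal. No paired analysis was possible because the graft and sham libraries share no animal number. The 3 sham libraries limit the precision of every difference.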
